A study of Mus musculus with 240 samples.

Results

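Soleus of lean male BTBR mice was compared between 4 and 10 weeks of age, 5 mice at each age, on 10 of the 240 arrays of the series. The arrays were chosen by their labels alone, as those of soleus from lean BTBR mice of these 2 ages. Each array is of 2 colours and sets RNA of 1 mouse against a pool made from equal amounts of RNA of 20 samples of the same strain and tissue. Values are log2 ratios to that pool, so they give no absolute level, and both ages share the pool, which cancels in their difference. The series as a whole studied diabetes in lean and ob mice of the strains BTBR and B6, in 6 tissues. All mice were males of in-house colonies, though the title of 1 array, of obese BTBR soleus mouse 8 at 10 weeks, gives no sex. Whether the lean mice were wild type or heterozygous for ob was not stated. The mice compared with these below were 5 lean B6 mice and 5 obese BTBR mice (labelled BTBRob) at each age, all soleus, and the gastrocnemius of the same 10 lean BTBR mice.

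Soleus is a small postural calf muscle rich in slow, mitochondria-rich fibres, while gastrocnemius is mostly fast. Between weaning and young adulthood a mouse muscle fibre grows, the proliferation of satellite cells and of connective tissue cells slows, developmental contractile proteins give way to adult forms, and the oxidative machinery matures. Mice with the ob mutation lack leptin, a hormone that restrains appetite, and become obese, and BTBR ob mice also become severely diabetic.

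Which dye carried the mouse RNA is not settled by the labels, so directions are given as likely ones. Their basis is the pool: for a mouse over a pool that holds such mice, the mean log ratio of a variable probe lies below 0. Of the 200 most variable probes of BTBR soleus, 79% had a mean below 0. In BTBR gastrocnemius it was 63.5%, a weaker basis for the directions in that muscle. The titles also name the pool first. If the ratio ran the other way, rises would be falls of equal size. Between the 10 arrays, correlations over all probes ran from -0.25 to 0.64, and none was below -0.3.

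A gene is said to have risen or fallen between 4 and 10 weeks where its adjusted p was 0.05 or less in limma with Benjamini-Hochberg adjustment over 19896 genes. Differences are log2 values, 10 minus 4 weeks unless stated, with the standard error of the fit after ± and n = 5 mice per age. A log2 difference of 1 is a 2-fold change. Array values are given in the order of mice 36, 37, 41, 42 and 45 at 4 weeks and of mice 26, 30, 31, 32 and 33 at 10 weeks. The number of arrays limits the precision, and the labels name no array batch. In a whole muscle, fewer cells of a type and less RNA per cell cannot be told apart.

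Several arrays stood apart from their group. The 4-week array of mouse 36 carried liver transcripts, with a mean log2 ratio of 2.50 over 28 liver genes against -1.42 to -1.35 in the other 4-week mice. Its value for albumin, Alb, was 3.19, where the other 4 had -3.42 to -2.82, and its values of the muscle myosin genes Myh7 (-2.05) and Myl2 (-1.98) were the lowest of the group. At 10 weeks mouse 33 had a liver mean of -0.19 against -1.42 to -1.17 in the others. In 10-week mouse 26, interferon-induced genes averaged 1.23 and antigen presentation genes 1.47, where the other 10-week mice had at most -0.04 and 0.26. As each ratio is to a pool of soleus, the level of soleus markers could not be set against that of another tissue.

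**Figure D1:**
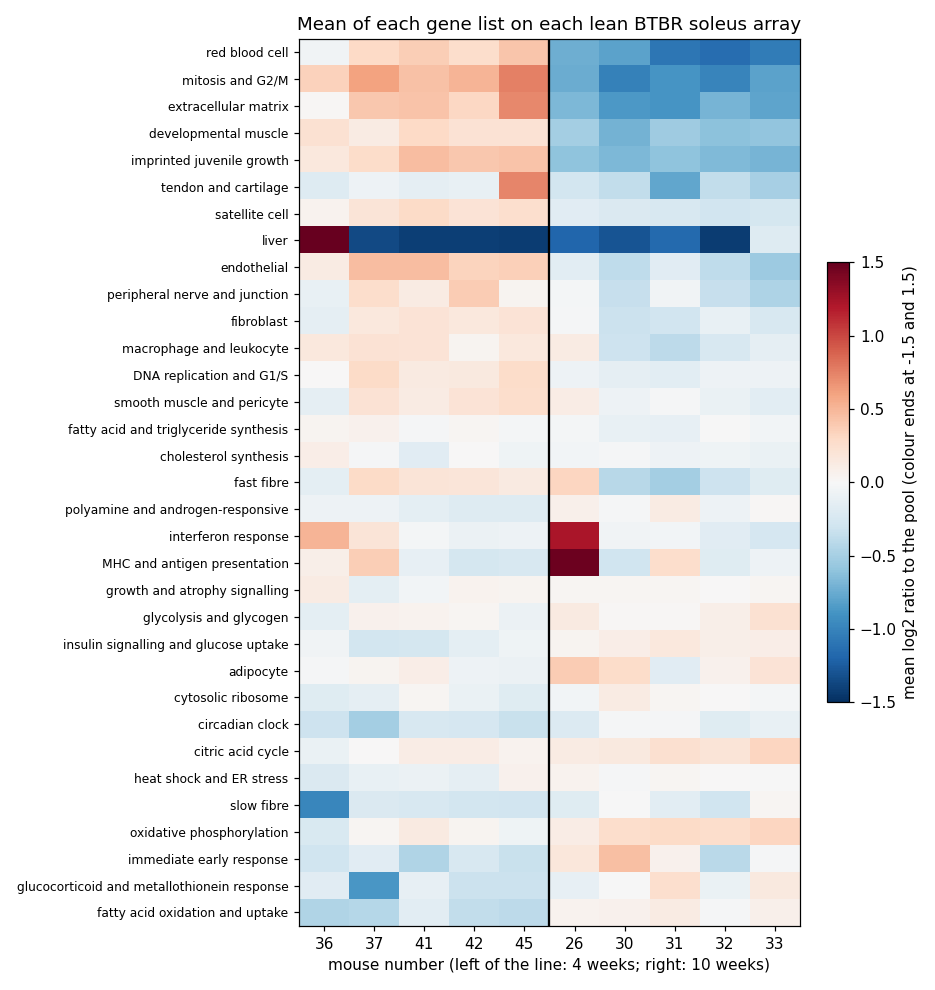
Mean log2 ratio to the BTBR soleus pool of each of 33 gene lists (rows, ordered by median age difference) on each of the 10 lean BTBR soleus arrays (columns, by mouse number, 4 weeks left of the line). Liver genes are high in 4-week mouse 36, interferon and antigen presentation genes in 10-week mouse 26, and tendon genes in 4-week mouse 45. The mitosis, matrix, imprinted and developmental lists are below 0 on all 10-week arrays.

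Ageing from 4 to 10 weeks moved many genes a little and few by much. Of 19896 genes, 3132 rose (15.7%) and 2786 fell (14.0%), together 29.7%, and the median over all genes was 0.03. Only 374 of these differed by at least 2-fold (1.88%), of which 75 were higher (0.377%) and 299 lower (1.5%) at 10 weeks. The 2 age groups did not overlap for 3886 genes (19.5%). Without mouse 36 the count of genes that passed was 6039, and 5425 passed with and without it in the same direction. The larger changes were mostly falls, and they included genes of cell division, collagens, imprinted growth genes and developmental muscle proteins, as the plot of genes by array shows. Genes of fatty acid oxidation and of the respiratory chain rose by smaller amounts.

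**Figure D2:**
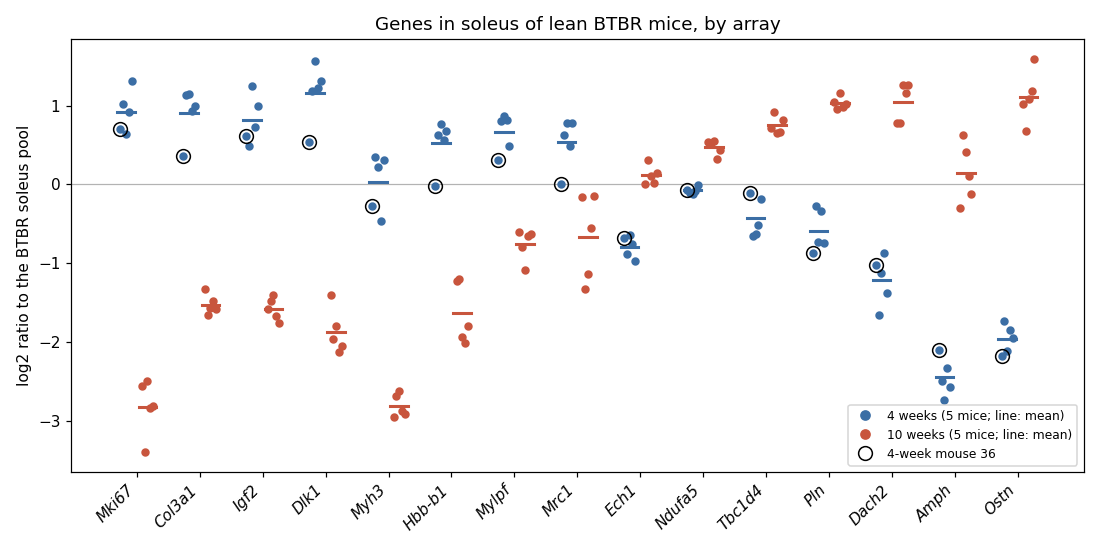
Log2 ratio to the BTBR soleus pool of 15 genes on each array at 4 weeks (blue) and 10 weeks (red), with bars at the mean of 5 mice and a circle round 4-week mouse 36. The 2 ages do not overlap for any of the 15, which were picked to show the groups of genes described.

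Genes of cell division gave the most uniform change. Of 38 measured genes of mitosis and the G2/M phase, 36 fell and none rose, with a median of -1.31, against 14.0% of all genes falling. The count of falls was also 36 without mouse 36. The other 2 were the kinesin genes Kif23 (0.09 ± 0.05) and Kif2c (-0.24 ± 0.12). Mki67, the proliferation marker Ki-67, had log2 ratios of 0.70, 1.03, 0.64, 0.91 and 1.31 at 4 weeks and of -2.56, -3.40, -2.50, -2.83 and -2.82 at 10 weeks. All 4-week arrays were above the pool and all 10-week arrays far below it. Mki67 fell by 3.74 ± 0.55 (adjusted p = 2.9e-06). Aurkb, a kinase of the chromosomal passenger complex, fell by 3.23 ± 0.44, Cks2, a subunit of cyclin-dependent kinases, by 2.68 ± 0.36, and Cdca8, the passenger complex member borealin, by 2.59 ± 0.39. The spindle gene Aspm, outside the list, fell by 2.53 ± 0.41.

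Many mitotic genes are known to carry a cell cycle homology element, TTTGAA, and CCAAT boxes in their promoters, which bind the DREAM or MuvB complex and the factor NF-Y. Both motifs were searched on both strands in RefSeq windows of the build GRCm38.p6 that run from 250 bases before to 50 bases after a gene's start. Of 38 mitosis genes, 33 had a window that was used. Any windows of these genes on 1 chromosome were left out, while the share over all windows had no such filter. TTTGAA was found in 26 of their 35 windows (74.3%), against 17.9% of all 32851 windows. CCAAT stood in 27 of the 35 (77.1%), against 37.4% of all. The windows of the 4 mitosis genes with the largest falls among those with 1 window are shown, 5′ to 3′ on the gene's strand, because this gene group changed most uniformly. Capitals mark TTTGAA or its reverse complement and CCAAT or its reverse complement ATTGG.
Mki67: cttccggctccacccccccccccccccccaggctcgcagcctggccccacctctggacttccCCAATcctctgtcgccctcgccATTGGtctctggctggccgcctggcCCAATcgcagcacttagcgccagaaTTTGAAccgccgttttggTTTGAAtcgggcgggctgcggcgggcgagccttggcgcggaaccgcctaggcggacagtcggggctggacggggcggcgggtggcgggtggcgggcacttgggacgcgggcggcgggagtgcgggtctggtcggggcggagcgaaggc
Cks2: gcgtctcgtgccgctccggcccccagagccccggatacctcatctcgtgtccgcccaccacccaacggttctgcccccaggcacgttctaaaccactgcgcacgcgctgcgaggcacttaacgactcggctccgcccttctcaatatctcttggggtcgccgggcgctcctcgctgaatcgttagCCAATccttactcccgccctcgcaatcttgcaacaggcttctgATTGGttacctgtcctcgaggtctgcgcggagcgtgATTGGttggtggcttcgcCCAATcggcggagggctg
Cdca8: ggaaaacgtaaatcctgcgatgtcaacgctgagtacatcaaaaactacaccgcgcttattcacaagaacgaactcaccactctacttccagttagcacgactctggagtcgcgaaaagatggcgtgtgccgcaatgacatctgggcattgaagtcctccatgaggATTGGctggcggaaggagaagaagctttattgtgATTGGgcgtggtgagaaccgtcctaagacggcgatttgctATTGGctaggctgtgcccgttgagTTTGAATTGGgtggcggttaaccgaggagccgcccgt
Cenpf: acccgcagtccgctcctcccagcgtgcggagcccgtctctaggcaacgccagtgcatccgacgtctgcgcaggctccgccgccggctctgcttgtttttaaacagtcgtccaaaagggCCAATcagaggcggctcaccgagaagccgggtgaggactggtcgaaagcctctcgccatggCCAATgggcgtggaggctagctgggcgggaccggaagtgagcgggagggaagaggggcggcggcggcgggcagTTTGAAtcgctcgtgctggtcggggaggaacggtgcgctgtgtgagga

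The window of Mki67 lies at chr7:135716330-135716629 on the minus strand and holds TTTGAA at 2 places and CCAAT at 3. That of Cks2 lies at chr13:51644982-51645281 on the plus strand and holds CCAAT at 4 places and no TTTGAA. The window of Cdca8 lies at chr4:124936868-124937167 on the minus strand, with TTTGAA at 1 place, where it overlaps a CCAAT box by 1 base, and CCAAT at 4. For Cenpf, a kinetochore protein gene that fell by 2.43 ± 0.39, it lies at chr1:189688037-189688336 on the minus strand, with TTTGAA at 1 place and CCAAT at 2. Cenpf was shown for its window and not by the rule for named genes. A match describes the letters of the window and is not a measured binding site.

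DNA replication genes moved less than those of mitosis. Of 31 measured, 12 fell and 3 rose (48.4% passing, against 29.7% of all genes), with a median of -0.27. Uhrf1, which maintains DNA methylation at replication forks, fell by 1.31 ± 0.21 and Tyms, thymidylate synthase, by 1.31 ± 0.26. The helicase subunits Mcm2 and Mcm5 fell by 0.68 ± 0.14 and 0.66 ± 0.22. Gins1 (0.48 ± 0.08), Pold1 (0.23 ± 0.07) and Rfc4 (0.21 ± 0.07) were the 3 that rose, a share below the 15.7% of all genes that rose.

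Extracellular matrix genes fell almost as uniformly. Of 38 measured, 32 fell and none rose (84.2% passing, against 29.7% of all genes). The counts were the same without mouse 36, and the median was -1.29. Col3a1, the chain of fibrillar collagen III, had log2 ratios of 0.36, 1.14, 1.14, 0.93 and 0.99 at 4 weeks and -1.33, -1.66, -1.57, -1.48 and -1.59 at 10 weeks. The first value, of mouse 36, was the lowest at 4 weeks, and still far above every 10-week value. Col3a1 fell by 2.44 ± 0.21 (adjusted p = 1.7e-10). Col1a1, of collagen I, fell by 2.12 ± 0.32, Col15a1, of a basement membrane collagen, by 1.98 ± 0.17 and Col6a3 by 1.90 ± 0.18. Cthrc1, a secreted protein of collagen-depositing cells, was among the largest falls of all genes (-3.17 ± 0.32). The 6 genes that did not pass ranged from -0.20 for the collagen hydroxylase subunit P4ha1 to 0.23 for Fmod, fibromodulin.

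Markers of connective tissue cells moved with the matrix genes. Of 14 fibroblast markers 7 fell and 2 rose (64.3% passing, against 29.7% of all genes). Col8a1 fell by 1.15 ± 0.21, Cd34 by 0.92 ± 0.13 and Thy1 by 0.78 ± 0.12, while Gsn, the actin-severing gelsolin, rose by 0.80 ± 0.15. Of 16 tendon and cartilage markers 7 fell and 2 rose (56.25% passing), with a median of -0.59. In both lists the share that rose was near the 15.7% of all genes that rose. Col2a1 fell by 2.22 ± 0.18, the proteoglycan gene Acan by 1.23 ± 0.25 and Tnmd, tenomodulin, by 1.13 ± 0.28, while Prg4, lubricin, rose by 1.02 ± 0.22. The tendon list averaged 0.73 in 4-week mouse 45 and -0.20 to -0.07 in the other 4-week mice. Without mouse 45, 5 members fell and 2 rose. The part of cell numbers in these changes was not tested.

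Marker genes of vessels and red blood cells were lower at 10 weeks too, and the part of cell numbers was not tested. Apln, apelin, a peptide of sprouting endothelium, had ratios of 0.07, 1.15, 0.57, 0.47 and 1.27 at 4 weeks and -2.69, -2.96, -2.54, -2.58 and -2.71 at 10 weeks. No 10-week array came near the 4-week ones, and Apln fell by 3.40 ± 0.41 (adjusted p = 1e-07). Its receptor gene Aplnr fell by 2.55 ± 0.28. Of 16 endothelial markers 11 fell and none rose (68.75% passing, against 29.7% of all genes). Among them were the VEGF receptor gene Kdr (-0.68 ± 0.20) and Tie1 (-0.54 ± 0.18), while the median was -0.40. Without 4-week mouse 37, 7 of the endothelial markers fell. Of 7 red blood cell genes 5 fell (71.4% passing), with a median of -1.41. Hbb-b1, an adult beta globin gene, had -0.03, 0.62, 0.77, 0.56 and 0.68 at 4 weeks and -1.23, -1.20, -1.94, -2.01 and -1.79 at 10 weeks, groups that do not overlap. It fell by 2.16 ± 0.29, Hbb-b2 by 2.06 ± 0.28, Hba-a1 by 1.54 ± 0.19, and Alas2, which starts haem synthesis in red cells, by 1.41 ± 0.21. Globin genes are near-identical copies, whose probes may share signal.

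By their medians, leukocyte genes fell less than red blood cell genes and about as much as endothelial ones. Of 28 macrophage and leukocyte markers 14 fell and 1, Jchain (0.25 ± 0.09), rose (53.6% passing, against 29.7% of all genes). The median was -0.37. The difference of Jchain was 0.16 without 10-week mouse 26, and it did not pass without any 1 of mice 26, 30, 37, 41 and 42. Mrc1, a receptor of resident macrophages, had 0.01, 0.63, 0.78, 0.49 and 0.78 at 4 weeks and -0.16, -1.33, -1.13, -0.55 and -0.15 at 10 weeks. The lowest 4-week value, again of mouse 36, lay just above the highest 10-week one. Mrc1 fell by 1.20 ± 0.22 (adjusted p = 9.7e-05), Adgre1, the F4/80 antigen, by 1.10 ± 0.18, Ptprc, CD45, by 0.84 ± 0.21 and the adaptor gene Tyrobp by 0.76 ± 0.12. In 10-week mouse 26 Ptprc stood at 0.82, above 4 of the 5 younger mice. Of 14 smooth muscle and pericyte markers 6 fell and none rose (42.9% passing, against 29.7% of all genes). Of 13 markers of nerve and the neuromuscular junction 5 fell and none rose (38.5%). Among them were the myelin genes Ncmap (-0.82 ± 0.20), Drp2 (-0.81 ± 0.15) and Pmp22 (-0.69 ± 0.12) and Chrne, the adult receptor subunit of the junction (-0.51 ± 0.13).

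Imprinted genes that act in growth before weaning are known to be turned down together as mice grow. Of 20 measured, 15 fell and 1, Asb4 (0.56 ± 0.13), rose (80% passing, against 29.7% of all genes), with a median of -0.61. Igf2, the fetal growth factor, had 0.61, 0.49, 1.25, 0.72 and 0.99 at 4 weeks and -1.58, -1.48, -1.40, -1.67 and -1.76 at 10 weeks. All young mice were above the pool and all older ones below it, and Igf2 fell by 2.39 ± 0.18 (adjusted p = 1.4e-11). Dlk1, a Notch-related ligand of immature cells, had 0.53, 1.19, 1.57, 1.22 and 1.31 at 4 weeks and -1.41, -1.96, -1.80, -2.13 and -2.05 at 10 weeks and fell by 3.03 ± 0.27. Cdkn1c, the cyclin-dependent kinase inhibitor p57, fell by 3.40 ± 0.27. Mirg, a non-coding transcript of the Dlk1 cluster that hosts miRNAs, fell by 2.47 ± 0.24. The whole list ran from -3.40 to 0.56, and Plagl1, Phlda2, Igf2r and Magel2 did not pass.

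Other growth genes went both ways. Of 23 genes of growth and atrophy signalling 6 rose and 5 fell (47.8% passing, against 29.7% of all genes). Igf1, the growth factor that drives muscle growth after birth, had 1.43, 0.62, 0.41, 0.52 and 0.73 at 4 weeks and -0.37, -0.76, -1.10, -0.61 and -0.55 at 10 weeks. It was highest in mouse 36, and fell by 1.42 ± 0.23 with that mouse and by 1.25 without it. Igf2bp2, an RNA-binding protein of the same growth factor system, fell by 0.96 ± 0.19, and the binding protein genes Igfbp4 and Igfbp5 by 0.87 ± 0.16 and 0.83 ± 0.20.

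Genes of developmental muscle proteins were lower at 10 weeks. Of 19 measured 10 fell and 2 rose (63.2% passing, against 29.7% of all genes). The counts were the same without mouse 36, and the median was -0.79. Myh3, embryonic myosin heavy chain, had -0.27, 0.34, 0.21, -0.46 and 0.31 at 4 weeks and -2.95, -2.68, -2.62, -2.88 and -2.91 at 10 weeks. All 4-week values lay near the pool and all 10-week values far below it, and Myh3 fell by 2.83 ± 0.26 (adjusted p = 4.4e-10). Myh8, the perinatal myosin, fell by 1.87 ± 0.33 and Actc1, the cardiac actin of immature fibres, by 2.22 ± 0.22. Mymk, myomaker, which fuses myoblasts to fibres, fell by 1.97 ± 0.25. Myl6b, a myosin light chain outside the list, fell by 2.79 ± 0.17. The 2 that rose, Myl4 (0.30 ± 0.09) and the receptor subunit gene Chrna1 (0.32 ± 0.07), did so by little. Of 11 satellite cell markers 6 fell and none rose (54.5% passing). Pax7, which defines these stem cells, fell by 0.87 ± 0.17, Myf5 by 0.79 ± 0.11, Calcr by 0.74 ± 0.19 and Vcam1 by 0.58 ± 0.13.

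Adult fibre type genes passed at about the share of all genes, 29.4% of the slow and 23.5% of the fast list against 29.7%. Of 17 slow fibre genes 3 rose and 2 fell, and without mouse 36 or without mouse 33 it was 1 and 2. Csrp3 (0.62 ± 0.21) and Tpm3 (0.48 ± 0.18) did not pass without mouse 36. Pln, phospholamban, the brake of the calcium pump of slow fibres, rose with and without mouse 36. Its ratios were -0.88, -0.27, -0.74, -0.34 and -0.74 at 4 weeks and 1.05, 0.96, 1.16, 0.98 and 1.02 at 10 weeks, a tight group at 10 weeks above every younger mouse. Pln rose by 1.63 ± 0.21 (adjusted p = 3.7e-07). Casq2, the calcium buffer of slow and cardiac muscle, fell by 0.73 ± 0.15, and Tnni1, slow troponin I, by 0.34 ± 0.10. Myh7, the slow myosin, did not pass (0.62 ± 0.38).

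Of 17 fast fibre genes 3 fell and 1, Myh1, rose by 0.16 ± 0.06. Mylpf, the fast regulatory light chain, had 0.31, 0.81, 0.87, 0.82 and 0.48 at 4 weeks and -0.60, -0.80, -1.09, -0.65 and -0.63 at 10 weeks, with no overlap, and fell by 1.41 ± 0.16 (adjusted p = 3e-08). Casq1, calsequestrin of fast fibres, fell by 1.01 ± 0.11. Actn3, the alpha-actinin of the fastest fibres, had 0.78, 1.07, 0.87, 0.49 and 0.78 at 4 weeks and 1.11, -2.09, -2.46, -1.70 and -1.44 at 10 weeks. Mouse 26 alone stood among the young mice, and Actn3 fell by 2.11 ± 0.41. Myh4, the fastest myosin, behaved likewise, at -1.66, -0.13, -0.95, -0.26 and 1.58 and 2.67, -3.61, -3.03, -2.44 and -2.85. It did not pass with mouse 26 (-1.57 ± 0.90, adjusted p = 0.19) and did without it (-2.70, adjusted p = 0.0081). Without that mouse 5 of the fast fibre genes fell and 1 rose.

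Genes that burn fatty acids were higher at 10 weeks. Of 37 genes of fatty acid oxidation and uptake 25 rose and 1, Cpt1a (-0.23 ± 0.08), fell (70.3% passing, against 29.7% of all genes). The median was 0.46 against 0.03 over all genes. The counts were the same without mouse 36. Ech1, an auxiliary enzyme for unsaturated fatty acids, had -0.69, -0.89, -0.65, -0.75 and -0.97 at 4 weeks and 0.01, 0.30, 0.10, 0.02 and 0.15 at 10 weeks. The 10-week mice were at or above the pool and the younger ones well below it, and Ech1 rose by 0.90 ± 0.11 (adjusted p = 9.2e-08). Acadm, medium-chain acyl-CoA dehydrogenase, rose by 0.94 ± 0.18, Hadhb, of the mitochondrial trifunctional protein, by 0.93 ± 0.14, and the thioesterase gene Acot1 by 1.05 ± 0.30. The ketone body enzyme Bdh1, in another class, rose by 2.19 ± 0.27.

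Respiratory chain genes rose by less. Of 47 measured 27 rose and 1, Atp5c1 (-0.68 ± 0.12), fell (59.6% passing, against 29.7% of all genes). The median was 0.25, and without mouse 36, 24 rose and 1 fell. Ndufa5, a complex I subunit, had -0.07, -0.11, -0.12, -0.09 and 0.00 at 4 weeks and 0.54, 0.53, 0.55, 0.32 and 0.43 at 10 weeks. The spread within an age was small and the groups did not overlap, and Ndufa5 rose by 0.55 ± 0.06 (adjusted p = 3.5e-08). Cox8b, a muscle form of a complex IV subunit, rose by 0.69 ± 0.18 and Sdhb, of complex II, by 0.61 ± 0.13. Of 17 citric acid cycle genes 7 rose and 1, Idh3b (-0.32 ± 0.09), fell (47.1% passing). Without mouse 36 it was 5 and 1, and without mouse 33 or mouse 37 it was 4 and 1. Idh2, the NADP-dependent mitochondrial isocitrate dehydrogenase, rose by 0.95 ± 0.16 with mouse 36, whose value was -1.73, and by 0.67 without it. Ogdh rose by 0.49 ± 0.15 and Sucla2 by 0.30 ± 0.07.

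Genes of glucose handling rose more often than they fell. Of 32 genes of glycolysis and glycogen 13 rose and 4 fell (53.1% passing, against 29.7% of all genes). The share that fell was near the 14.0% of all genes that fell. Without mouse 36, 9 rose and 6 fell. Slc16a3, the lactate exporter MCT4 of fast fibres, had 0.43, 0.67, 0.33, 0.49 and 0.40 at 4 weeks and -0.16, -0.52, -0.95, -0.74 and -0.61 at 10 weeks. Every 10-week value was below every 4-week one, and Slc16a3 fell by 1.06 ± 0.14 (adjusted p = 6.4e-07). Gpd1, of the glycerol phosphate shuttle, fell by 0.71 ± 0.15. Pfkfb1, which makes the activator of phosphofructokinase, rose by 1.05 ± 0.20. Pfkfb3, of the same family, rose by 0.74 ± 0.24 with mouse 26 (1.44) and did not pass without it. Of 25 genes of insulin signalling and glucose uptake 9 rose and none fell (36% passing, against 29.7% of all genes). Tbc1d4, AS160, which gates the glucose transporter GLUT4, had -0.11, -0.66, -0.63, -0.52 and -0.19 at 4 weeks and 0.72, 0.92, 0.65, 0.67 and 0.82 at 10 weeks. The groups did not overlap, and Tbc1d4 rose by 1.18 ± 0.17 (adjusted p = 1.9e-06). Irs2, an insulin receptor substrate, rose by 1.55 ± 0.43, though mouse 36 (0.33) lay among the older mice. Grb14 and Trib3, both known to damp insulin signalling, rose by 0.77 ± 0.19 and 0.66 ± 0.16.

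Lipid synthesis was mixed, with 6 of 21 genes higher and 6 lower (57.1% passing, against 29.7% of all genes). Dgat2, which completes triglycerides, rose by 1.04 ± 0.13 and the acyltransferase gene Agpat2 by 0.81 ± 0.11, while the desaturase and elongase genes Scd2 and Elovl6 fell by 1.09 ± 0.19 and 0.94 ± 0.18. Of 17 cholesterol synthesis genes 5 fell and 1, Fdft1, squalene synthase, rose by 1.11 ± 0.11. The share that passed, 35.3%, was near that of all genes. Without mouse 36, 2 of these fell and 1 rose.

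**Figure D3:**
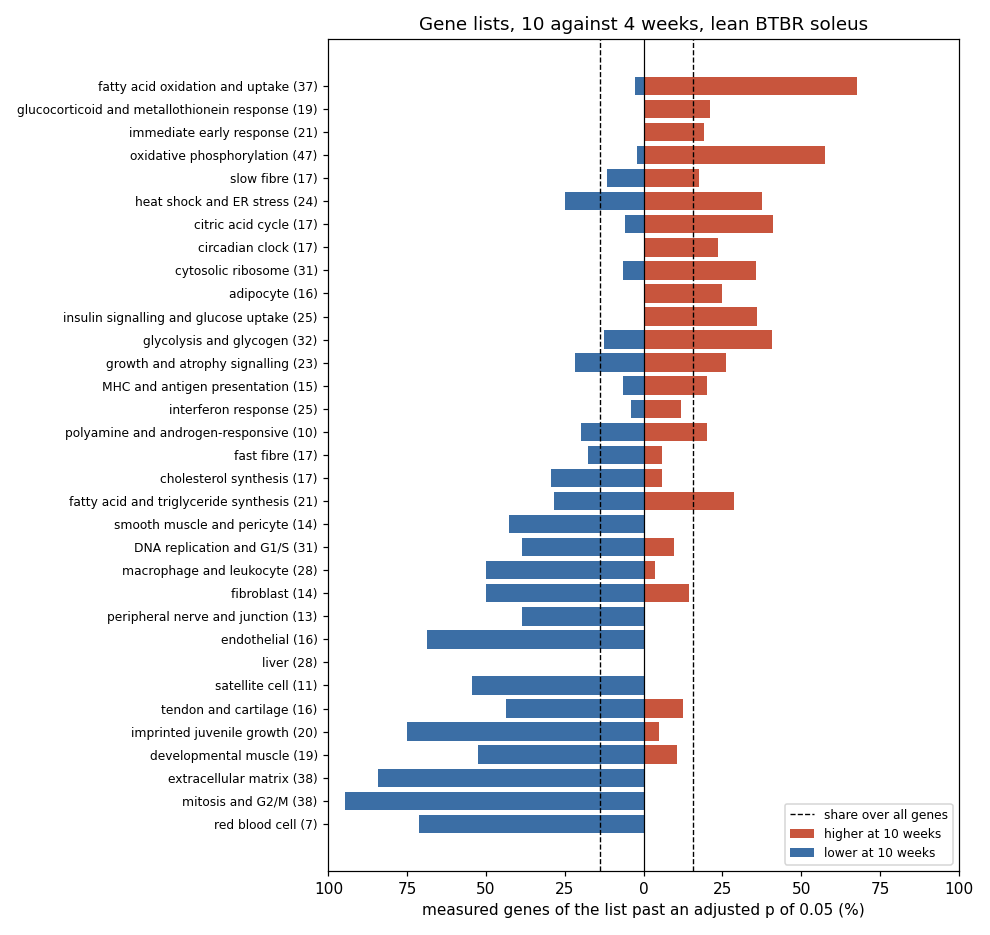
Share of the measured genes of each list (number in brackets) that passed an adjusted p of 0.05, higher at 10 weeks to the right and lower to the left, with dashed lines at the share over all genes (15.7% and 14.0%). Mitosis and matrix lists reach furthest to the left, fatty acid oxidation and oxidative phosphorylation to the right, and the liver list has no such gene.

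The single largest rise was in Ostn, osteocrin or musclin, a peptide that muscle secretes. Its ratios were -2.17, -1.73, -2.11, -1.85 and -1.95 at 4 weeks and 1.02, 0.68, 1.08, 1.18 and 1.60 at 10 weeks. All young mice were below the pool and all older ones above it, and Ostn rose by 3.08 ± 0.20 (adjusted p = 4.5e-13). Amph, amphiphysin, which bends membranes, had -2.10, -2.49, -2.74, -2.33 and -2.57 at 4 weeks and -0.30, 0.62, 0.41, 0.11 and -0.12 at 10 weeks, all older mice near the pool and all young ones far below, and rose by 2.59 ± 0.23. Dach2, a cofactor of muscle transcription, had -1.03, -1.65, -1.12, -0.87 and -1.38 and 0.78, 0.77, 1.26, 1.16 and 1.26, without overlap, and rose by 2.26 ± 0.15.

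The other large rises belonged to several classes. Enzymes of xenobiotic and small molecule metabolism were Inmt (2.25 ± 0.38), Cyp1a1 (2.12 ± 0.43), the epoxide hydrolase gene Ephx2 (1.73 ± 0.12) and the quinone reductase gene Nqo1 (1.65 ± 0.14). The amylase gene Amy1 rose by 2.23 ± 0.20. Dkk2, a secreted modulator of Wnt signalling, rose by 2.20 ± 0.37, Cyfip2, an actin regulator, by 2.10 ± 0.20, and the heparan sulfate enzyme gene Hs3st5 by 1.85 ± 0.23. The deubiquitinase gene Otud1 rose by 1.62 ± 0.56, with 4-week values from -2.30 to 0.15. Tgtp1, a GTPase induced by interferon, rose by 1.83 ± 0.53 with mouse 26 at 3.41 and the other 10-week mice at -0.65 to -0.04, and without mouse 26 it rose by 1.07. The largest fall of all was in Prnd, which encodes doppel, a relative of the prion protein, at 0.20, 1.63, 1.01, 1.14 and 1.05 and -3.06, -3.73, -3.58, -3.32 and -3.28. Prnd fell by 4.40 ± 0.51 (adjusted p = 4.9e-08), without overlap. Capn6, a calpain without protease activity, fell by 2.47 ± 0.20.

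The age effect was next set against that of lean B6 mice, the strain that ob leaves with milder diabetes. Each strain's own pool cancels in its age difference. In B6 soleus 4911 genes passed (24.7%). The test of the difference itself passed for 71 genes (0.357%), 36 higher (0.181%) and 35 lower (0.176%) in BTBR. Without 4-week mouse 36 it passed for 159 and without 10-week mouse 30 for 23, so the count rests on single arrays. Amph differed most among the higher ones, at 2.59 ± 0.23 in BTBR and 0.30 ± 0.23 in B6, a difference of 2.29 ± 0.32 (adjusted p = 0.00023). Ephx2 (0.86 ± 0.17), the mitochondrial glutamate carrier gene Slc25a18 (1.0 ± 0.23), the acetyl-CoA synthetase gene Acss1 (0.77 ± 0.17) and Selenbp2 (0.72 ± 0.15) were the next.

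Among genes lower in BTBR, Hbb-b1 differed by -1.72 ± 0.40, with -2.16 ± 0.29 in BTBR and -0.43 ± 0.29 in B6 (adjusted p = 0.046). Sntg2 (-1.37 ± 0.23), Xdh, xanthine dehydrogenase (-1.28 ± 0.24), Cib2 (-1.25 ± 0.24) and Ptprc (-1.22 ± 0.29) followed. Ptprc and Tyrobp (-0.75 ± 0.17) were the 2 of 28 leukocyte markers to pass, in a list of which 14 fell in BTBR and 1 in B6. Slc16a3 (-0.85 ± 0.20) was the 1 gene of glycolysis. No member of the mitosis, matrix, imprinted, developmental, respiratory chain or fatty acid oxidation lists passed this test in limma. At an unadjusted p of 0.05 the counts were 5 of 38, 6 of 38, 1 of 20, 3 of 19, 13 of 47 and 10 of 37 in that order, against 2186 of all 19896 genes. The lists moved the same way in B6, with medians of -1.13 for mitosis, -0.83 for matrix, -0.56 for imprinted and -0.65 for developmental genes. The metabolic lists moved less in B6. Of the respiratory chain genes 9 rose and 1 fell there (median 0.13), against 27 and 1 in BTBR (0.25). Of the fatty acid oxidation genes 11 rose and 2 fell in B6 (median 0.20), against 25 and 1 in BTBR (0.46). In B6 lean 4-week soleus 2 of the 5 arrays, of mice 31 and 35, carried liver transcripts. Without either of these alone the strain test passed for 64 genes. Without both, mouse 36 and the obese soleus arrays that carried liver transcripts, it passed for 27.

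The same 6 weeks in obese BTBR mice gave 6481 genes (32.6%), and the difference between obese and lean passed for 957 (4.81%), 399 higher (2.01%) and 558 lower (2.8%) in obese mice. It passed for 423 after quantile normalization and for 606 with only the arrays of the groups compared in the fit. Fatty acid genes made the largest positive differences. Acot1 rose by 1.05 ± 0.30 in lean mice and by 5.34 ± 0.30 in obese mice, a difference of 4.30 ± 0.43 (adjusted p = 2.5e-08). Angptl4, a lipoprotein lipase inhibitor induced by fatty acids, differed by 3.11 ± 0.37, with -0.32 ± 0.26 in lean and 2.79 ± 0.26 in obese mice. Fbp2, muscle fructose bisphosphatase, differed by 2.87 ± 0.23, Ndrg4 by 2.60 ± 0.31 and Psat1, of serine synthesis, by 2.40 ± 0.24. Of 37 fatty acid oxidation genes 17 differed, all higher in obese mice, with medians of 0.46 in lean and 0.91 in obese mice.

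The respiratory chain went the other way. Of 47 genes 13 differed, all lower in obese mice, where 8 fell and none rose, with a median of -0.03 against 0.25 in lean mice. Ndufa5 differed by -0.40 ± 0.09. Of 17 fast fibre genes 6 differed, all lower in obese mice, and 13 fell in these (median -0.96, in lean mice -0.06). Pfkfb1, which rose in lean mice, differed by -1.38 ± 0.28, and 9 of 32 genes of glycolysis were lower and 1 higher. Grb14 differed by -1.16 ± 0.27. Myh3 fell by less in obese mice, -1.12 ± 0.26, a difference of 1.72 ± 0.37 (adjusted p = 0.0034), as did Myl6b (1.24 ± 0.24). Unc13c (-2.95 ± 0.62), Kera, keratocan (-2.26 ± 0.54), H2-Q7 (-2.18 ± 0.65), Tspan8 (-1.96 ± 0.45) and Aldoart2 (-1.84 ± 0.32) were the largest negative differences. No gene of the mitosis or matrix lists passed in limma, and at an unadjusted p of 0.05 it was 2 and 3 of 38, against 3330 of all 19896 genes. Of the obese 10-week arrays 1 carried liver transcripts. Without it, mouse 36 and the B6 soleus arrays that carried liver transcripts, the count was 946.

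Gastrocnemius of the same 10 mice showed which age changes differ between the muscles. In gastrocnemius 7244 genes passed (36.4%), and the difference of soleus minus gastrocnemius, taken within each mouse, passed for 1123 (5.64%), 576 higher (2.9%) and 547 lower (2.75%) in soleus. It passed for 713 without mouse 42 and for 737 without mouse 30. Amph differed by 2.50 ± 0.16, at 2.59 ± 0.23 in soleus and 0.09 ± 0.12 in gastrocnemius (adjusted p = 5.9e-05). Dkk2 differed by 2.45 ± 0.17, with -0.25 ± 0.12 in gastrocnemius, and Pln by 1.59 ± 0.11, with 0.04 ± 0.07. Lrrc52 (1.51 ± 0.17) was higher as well. Actc1 fell in both muscles, with -2.22 ± 0.22 in soleus and -4.25 ± 0.39 in gastrocnemius, a difference of 2.04 ± 0.38. Ostn rose in both, by 2.01 ± 0.21 in gastrocnemius, and differed by 1.07 ± 0.25.

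Fatty acid oxidation genes differed between the muscles, with 11 of 37 higher in soleus by this test and none lower, and with 9 rises and 3 falls in gastrocnemius (median 0.07). Ech1 (0.52 ± 0.08) and Acot1 (1.08 ± 0.14) were 2 of them. Of 47 respiratory chain genes 6 were higher and none lower, among them Ndufa5 (0.40 ± 0.08) and Cox8b (0.64 ± 0.14), and in gastrocnemius none rose and 3 fell. Tbc1d4 differed by 0.92 ± 0.13. Mylpf differed by -1.08 ± 0.18, with -0.33 ± 0.06 in gastrocnemius.

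Of 38 mitosis genes 11 fell by more in soleus and none by less, such as Aurkb (-1.29 ± 0.17), Cdca8 (-1.01 ± 0.14) and Mki67 (-0.85 ± 0.22), although 34 also fell in gastrocnemius. Developmental muscle genes went both ways, with 4 of 19 higher in soleus and 4 lower (median -0.08). Myh3 (-1.15 ± 0.22) and Myh8 (-1.21 ± 0.21) were among the lower, and Actc1 (2.04 ± 0.38) and Chrna1 (0.87 ± 0.08) among the higher. Matrix genes fell in both muscles, 33 of 38 in gastrocnemius, and 3 of 38 passed the test of the difference, all higher in soleus, among them Col1a1 (0.83 ± 0.19). Of 28 leukocyte markers 8 were lower in soleus, among them Adgre1 (-0.85 ± 0.08) and Ptprc (-0.95 ± 0.10), and of 15 antigen presentation genes 7 were, among them Ctss (-0.81 ± 0.14). The largest negative difference was in Amd1, which makes a precursor of polyamines, at 0.61 ± 0.15 in soleus and 2.90 ± 0.34 in gastrocnemius (-2.29 ± 0.20, adjusted p = 0.00026). Cbr2 (-1.90 ± 0.20), Cd24a (-1.81 ± 0.21), Ces2 (-1.74 ± 0.18) and Htra4 (-1.73 ± 0.23) followed.

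**Figure D4:**
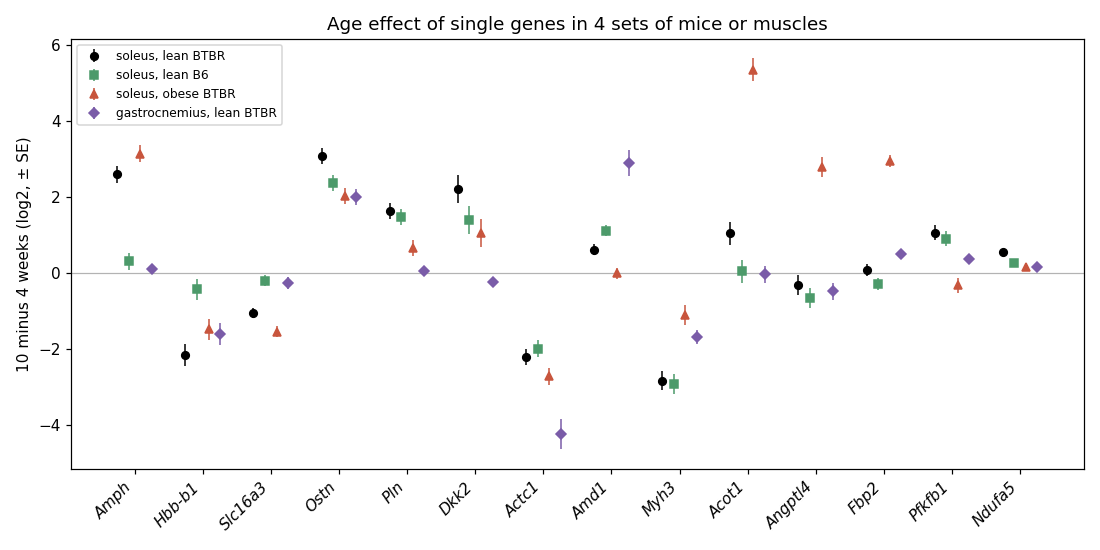
Age difference, 10 minus 4 weeks, of 14 genes in soleus of lean BTBR, lean B6 and obese BTBR mice and in gastrocnemius of lean BTBR mice, each with the standard error of its fit (5 mice per age). Amph stands near 0 in lean B6 soleus and in gastrocnemius, Pln and Dkk2 stand near 0 in gastrocnemius, and Acot1, Angptl4 and Fbp2 stand high in obese mice.

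**Figure D5:**
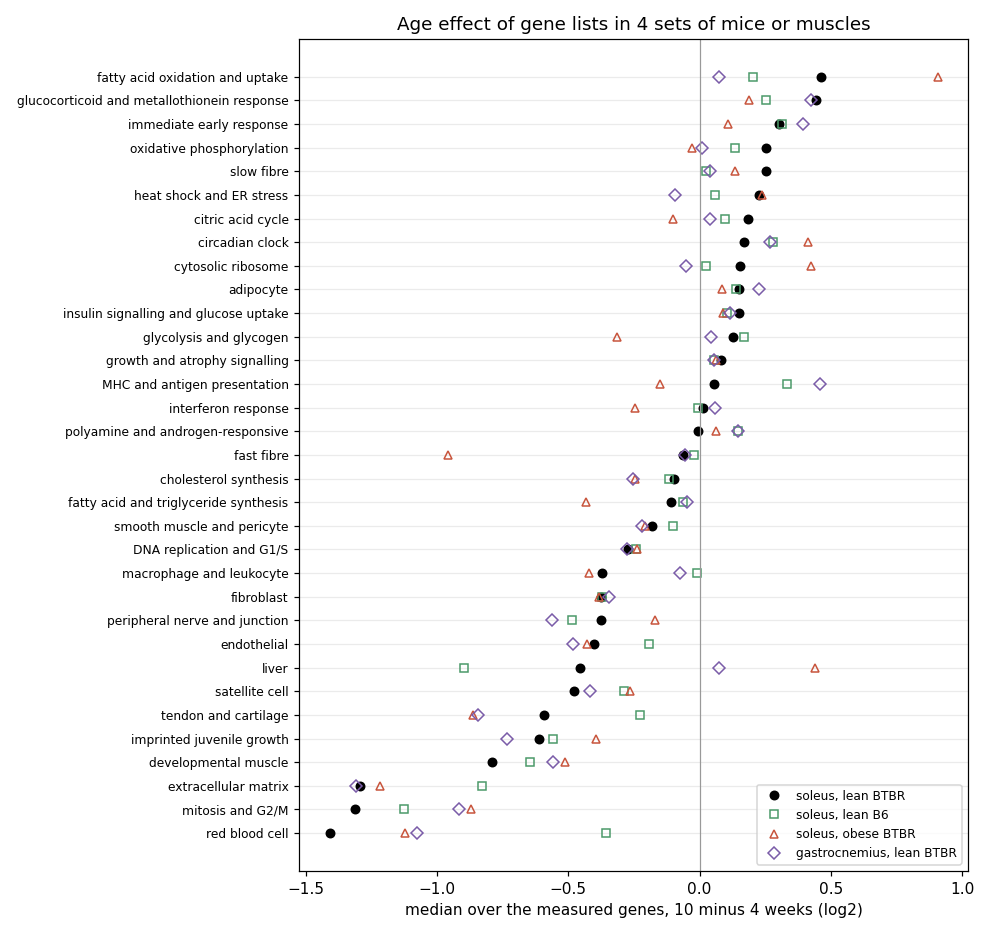
Median age difference over the measured genes of each of 33 lists in the same 4 sets. Mitosis, matrix, imprinted and developmental lists lie below -0.3 in all 4, the oxidative phosphorylation list is highest in lean BTBR soleus, and the fast fibre list is lowest in obese BTBR soleus.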

How the data were processed

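The values deposited by the authors are log10 ratios of the 2 dyes for 39556 probes on each array. Per the labels' protocols, RNA was extracted with Trizol and a column, amplified to cRNA and labelled with Cy3 and Cy5. Of the scanner, the background correction and the normalization nothing is recorded in the labels used here, so their effect could not be examined. The values are bounded at -2 and 2 on the log10 scale, and 14 of those of lean BTBR soleus lay at a bound. None was missing. Array medians of lean BTBR soleus lay between -0.02 and 0.04 on the log2 scale, and no further normalization or filter on level was applied, since a ratio holds no level.

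Ratios were converted to log2. Of the probes, 23283 (58.9%) had 1 gene symbol after matching to RefSeq names, and the probes of a gene were averaged, for 2869 genes with several, giving 19896 genes. One limma model (version 3.58.1, R 4.3.3) with 8 groups of strain, obesity and age was fitted over the 40 soleus arrays, and differences of age effects were contrasts of it. Soleus minus gastrocnemius was fitted on within-mouse differences, since these are muscles of the same 10 mice. Deviations from the group mean correlated between the muscles of a mouse at 0.0069 to 0.538 (median 0.245), and 8 of 10 exceeded 0.1. Adjusted p-values are Benjamini-Hochberg over all genes. Apart from the mice being separate animals, the labels say nothing of replication. The fit was tested on simulated data.

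Genes named are the 15 largest rises and falls that passed without overlap and without mouse 36, up to 4 members of each list, and the 5 largest differences each way in each difference test, with placeholder symbols skipped. A list with exceptions to its direction had these named too, and they, the cell markers and Cenpf were chosen after their values were seen. The arrays and gene lists were chosen with earlier results of these data known. Alternatives were other arrays in the fit, quantile normalization or centring, array weights, robust variances, other probe rules, and each mouse left out in turn.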

Additional observations from a re-analysis of the deposited data

Results flagged for a closer look

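In 34 of 370 groups of 5 values, taken over the genes named in the text and the means of the gene lists, 1 mouse lay apart from the other 4. The measure was the gap to the nearest other mouse as a share of the group's range, above a critical value of 0.71. Chance alone gives about 1 in 20 for independent groups chosen without regard to their values. Many of these genes were chosen by their values, so 34 of 370 cannot be judged against that rate. At 4 weeks mouse 36 lay apart, with that share in brackets, for Agpat2 (0.741), Alb (0.91), Aldoart2 (0.85), Col3a1 (0.727), Gsn (0.801), Hbb-b1 (0.739), Idh2 (0.877), Myh7 (0.948) and Scd2 (0.802). At 10 weeks mouse 26 did so for Actn3 (0.716), Adgre1 (0.832), Mcm2 (0.74), Myh4 (0.815), Pfkfb3 (0.723), Ptprc (0.742), Tgtp1 (0.852), Uhrf1 (0.759), Unc13c (0.722) and Vcam1 (0.828). Other mice did so for Alb in mouse 33 at 10 weeks (0.802), Aldoart2 in mouse 32 at 10 weeks (0.846), Dkk2 in mouse 37 at 4 weeks (0.739), Fdft1 in mouse 30 at 10 weeks (0.77), Myh7 in mouse 30 at 10 weeks (0.822), Myl4 in mouse 30 at 10 weeks (0.711) and Psat1 in mouse 33 at 10 weeks (0.712). Of the list means, those that lay apart were slow fibre in mouse 36 at 4 weeks (0.909, with a mean of -0.97 against -0.29 to -0.22), tendon and cartilage in mouse 45 at 4 weeks (0.865, with a mean of 0.73 against -0.20 to -0.07), oxidative phosphorylation in mouse 26 at 10 weeks (0.718, with a mean of 0.12 against 0.27 to 0.33), glucocorticoid and metallothionein response in mouse 37 at 4 weeks (0.734, with a mean of -0.88 against -0.33 to -0.12), interferon response in mouse 26 at 10 weeks (0.855, with a mean of 1.23 against -0.26 to -0.04), liver in mouse 36 at 4 weeks (0.982, with a mean of 2.50 against -1.42 to -1.35), liver in mouse 33 at 10 weeks (0.795, with a mean of -0.19 against -1.42 to -1.17) and fibroblast in mouse 36 at 4 weeks (0.843, with a mean of -0.14 against 0.15 to 0.21). The liver genes of mouse 36 and the interferon genes of mouse 26 are described above with the results they touch, and their part in the other values was not tested.

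The age effect differed between sets of mice or muscles, by a test of the difference itself at an adjusted p of 0.05 in limma, for several genes named in the text. Values are differences of log2 age differences. Between BTBR and B6 lean mice 12 did so, namely Acss1 (0.77), Amph (2.29), Ephx2 (0.86), Selenbp2 (0.72) and Slc25a18 (1.0) higher in BTBR and Cib2 (-1.25), Hbb-b1 (-1.72), Ptprc (-1.22), Slc16a3 (-0.85), Sntg2 (-1.37), Tyrobp (-0.75) and Xdh (-1.28) lower. Of these, Amph had the largest difference.

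Between obese and lean BTBR mice 31 of the named genes differed. Higher in obese mice were Acot1 (4.30), Agpat2 (0.53), Angptl4 (3.11), Casq2 (0.86), Chrna1 (0.36), Cpt1a (0.39), Ech1 (0.84), Ephx2 (1.18), Fbp2 (2.87), Igf2bp2 (0.92), Myh3 (1.72), Myl6b (1.24), Ndrg4 (2.60), Psat1 (2.40) and Tnni1 (0.65). Lower in obese mice were Aldoart2 (-1.84), Amy1 (-1.20), Cyfip2 (-1.18), Dach2 (-0.78), Ghr (-0.81), Grb14 (-1.16), H2-Q7 (-2.18), Kera (-2.26), Lrrc52 (-1.23), Mylpf (-0.91), Ndufa5 (-0.40), Ostn (-1.05), Pfkfb1 (-1.38), Pfkfb3 (-1.23), Tspan8 (-1.96) and Unc13c (-2.95). Acot1 had the largest difference of the first group and Unc13c of the second.

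Between soleus and gastrocnemius of the same lean BTBR mice 50 differed. Higher in soleus were Acot1 (1.08), Acss1 (0.59), Actc1 (2.04), Amph (2.50), Chrna1 (0.87), Col1a1 (0.83), Cox8b (0.64), Cyfip2 (0.88), Cyp1a1 (1.40), Dach2 (0.84), Dkk2 (2.45), Ech1 (0.52), Ephx2 (0.80), Gins1 (0.26), Lrrc52 (1.51), Ndufa5 (0.40), Ostn (1.07), Pfkfb1 (0.68), Pln (1.59), Selenbp2 (0.71), Tbc1d4 (0.92) and Trib3 (0.71). Lower in soleus among genes of growth and division were Aurkb (-1.29), Cdca8 (-1.01), Cdkn1c (-0.82), Igf1 (-0.99), Igfbp4 (-0.44), Mcm2 (-0.48), Mirg (-0.85) and Mki67 (-0.85). Lower among genes of blood, vessel and immune cells were Adgre1 (-0.85), Alas2 (-0.33), Apln (-0.90), Ctss (-0.81), Ptprc (-0.95) and Tyrobp (-0.46), and among muscle genes Myf5 (-0.39), Myh3 (-1.15), Myh8 (-1.21), Myl6b (-1.14), Mylpf (-1.08) and Slc16a3 (-0.79). The others that were lower were Amd1 (-2.29), Capn6 (-0.66), Cbr2 (-1.90), Cd24a (-1.81), Ces2 (-1.74), Cib2 (-0.77), Htra4 (-1.73) and Prnd (-1.60).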

How the results depend on the processing

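The age effect of lean BTBR soleus passed for 4725 to 7708 genes or probes over the other settings tried, within 1.5 times of 5918, and for 4960 to 6039 genes with 1 mouse left out. Of 3607 results of named genes under other settings, 3395 kept their call and direction, 196 lost the call and 8 gained it. The other 8 were sign changes of the age differences of Alb, Cd24a, Myl2 and Xdh, which had not passed. Of 138 named genes called with age, 112 were called under every alternative. Without at least 1 of the mice, the age calls of Cpt1a, Kdr, Mcm5, Myh1, Ogdh, Otud1, Per1, Rfc4, Tef, Tie1 and Trim63 were lost, beside those described above. The strain difference, 71 genes, was the least stable. It passed for 35 with only the arrays of the groups compared, 35 after quantile normalization, 282 with array quality weights and 27 without the arrays with liver transcripts. With 1 mouse left out it ran from 23 to 159. In BTBR it was 26 without mouse 37, 35 without mouse 41, 46 without mouse 45, 120 without mouse 26 and 43 without mouse 32, and in B6 it was 37 without mouse 23, 34 without mouse 22, 47 without mouse 48 and 40 without mouse 20. The obesity difference, 957 genes, passed for 606 with only the groups compared, 423 after quantile normalization and 717 to 991 with 1 mouse left out. No paired analysis was possible because the 4- and 10-week groups share no mouse number. The muscle difference, 1123 genes within mice, passed for 767 with no replicate block, for 1373 with mouse as a random replicate block and for 713 to 1347 with 1 mouse left out. Of 33 lists, 18 kept their count within 1.5 times under all alternatives. With only the groups compared, 6 glycolysis genes rose and 4 fell, and no interferon or antigen presentation gene passed in limma, with 1 of each at an unadjusted p of 0.05. With array weights, 9 nerve markers fell. After quantile normalization 7 endothelial markers fell. Without the arrays with liver transcripts 6 liver genes rose. Those left out had a liver mean more than 1 above the median of the soleus arrays. Mouse 33 of 10 weeks, at 0.918 above that median, stayed in. The causes of these shifts were not tested, apart from the fewer arrays where some were left out. With 5 mice per age, the number of arrays limits what can be detected, and levels over background are not used here because the files hold ratios.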

Other observations

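Genes of the interferon (16%) and antigen presentation (26.7%) lists passed at shares below the 29.7% of all genes, and their counts rested on single mice. Of 25 interferon-induced genes 3 rose and 1 fell, and without 10-week mouse 26 none rose and 10 fell. Without mouse 37, 41, 42 or 45, all of 4 weeks, none rose and 1 or 2 fell. Of 15 antigen presentation genes 3 rose and 1 fell, and without mouse 26 it was 1 and 3. Without 10-week mouse 31, 2 of these rose and none fell. H2-Q7, a class Ib histocompatibility gene, had -0.82, -0.89, -1.48, -1.77 and -1.53 at 4 weeks and 2.79, -0.65, 1.85, -0.83 and 0.08 at 10 weeks, with mice 26 and 31 far above the other older mice. The classical class I genes H2-K1 (0.74 ± 0.22) and H2-D1 (0.64 ± 0.21) passed with mouse 26 and not without it. Such genes are near-identical copies, whose probes may share signal.

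Of 17 circadian clock genes (23.5% passing, against 29.7% of all genes) 4 rose and none fell, among them the clock output factors Hlf (0.74 ± 0.15) and Tef (0.33 ± 0.11) and the repressors Nr1d1 (0.38 ± 0.11) and Per1 (0.52 ± 0.19). Without 4-week mouse 45, 2 of the clock genes rose. The time of day of collection was not stated in the labels. Among atrophy genes the ubiquitin ligase genes Fbxo32 and Trim63 rose by 0.80 ± 0.23 and 0.36 ± 0.11, Mstn, myostatin, by 0.46 ± 0.17 and Ghr, the growth hormone receptor, by 0.68 ± 0.12. Without 10-week mouse 26 the difference of Mstn was 0.26 and did not pass, nor did it without any 1 of mice 32, 33, 37, 41 and 45. Of 24 heat shock and ER stress genes 9 rose and 6 fell, 62.5% of the list, and under all alternatives run 7 to 9 rose and 6 fell. Of 31 ribosomal protein genes 11 rose and 2 fell (41.9%). Of 21 immediate early genes 4 rose and none fell (19.0%), and of 19 genes of the glucocorticoid and metallothionein responses 4 rose and none fell (21.1%), both below the share of all genes. Without 10-week mouse 30, 6 of the ribosomal protein genes rose and 2 fell. Of the immediate early genes at most 2 rose without any 1 of mice 26, 30, 31, 33, 37, 41 and 45. Of the glucocorticoid and metallothionein genes 1 rose without mouse 37, 2 without mouse 31 or mouse 45, and 7 without mouse 41. Of 16 adipocyte markers 4 rose and none fell (25%, again below that share), and without mouse 30 it was 2 and none. Of 10 genes of polyamine and androgen responses 2 rose and 2 fell (40%), and without mouse 32 or mouse 37 none fell. Of 28 liver genes none passed with mouse 36 in limma, with 2 at an unadjusted p of 0.05, and 1 rose without it. Without mouse 33, 41, 42 or 45, 1 liver gene fell.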
